A study of Homo sapiens with 2 samples.

Results

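A set of 10 genes of the autophagy machinery was followed in HSC-1 cells after knockdown of the long non-coding RNA LINP1. They were the cargo receptor SQSTM1, the ATG8 genes MAP1LC3B, GABARAP, GABARAPL1 and GABARAPL2, the conjugation genes ATG5 and ATG12, the kinase ULK1, the lipid kinase subunit BECN1 and the phosphoinositide-binding protein WIPI1. The genes were chosen by name, with earlier results of these data known, and are 10 of the 44591 genes in the table of counts. In siLINP1-treated cells, SQSTM1 was 1.61-fold higher (95% interval 1.58 to 1.64) and BECN1 was 1.5-fold higher (1.38 to 1.64). ATG12, ULK1 and MAP1LC3B were higher by smaller amounts, GABARAP and WIPI1 were lower, although the interval of GABARAP held 0 once a trend on gene length was removed, and the intervals of GABARAPL1, GABARAPL2 and ATG5 held a log2 fold change of 0.

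The labels name the cells HSC-1, an established line of cutaneous squamous cell carcinoma. They received a control siRNA (siNC) or an siRNA against LINP1 (siLINP1), and each condition had 1 RNA sequencing library. According to the sample labels, cells at 70% confluency were transfected without serum for 6 h, and culture went on for 24 h after the medium was changed, while the study's methods state another confluency and time. With 1 library per condition no difference has a replicate check, no p-value was computed, and the intervals cover counting error only.

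Autophagy encloses cytoplasm in a double membrane, the autophagosome, which fuses with the lysosome. The kinase ULK1 starts the process, a lipid kinase complex with BECN1 makes phosphatidylinositol 3-phosphate on the membrane, and WIPI proteins bind that lipid. The conjugate of ATG12 and ATG5 then helps to attach ATG8 proteins, of the LC3 and GABARAP subfamilies, to the lipid phosphatidylethanolamine. Receptors such as SQSTM1 (also called p62) bind ubiquitinated cargo and ATG8 proteins together, and SQSTM1 is itself degraded by autophagy. RNA levels measure neither the attachment of ATG8 proteins nor the flux through the pathway.

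Reads counted on genes numbered 18829544 in siNC and 15383081 in siLINP1. LINP1 itself, at chr10:6779344-6780901 of GRCh37, was read 167 times in siNC and 23 times in siLINP1, which gives a log2 fold change of -2.65 (95% interval, -3.35 to -2.02). Among 8 genes of squamous keratinocytes, 4 (KRT5, TP63, DSG3 and PKP1) were under 1 RPKM in both libraries, so these defining markers were at or near 0. KRT14, DSP, SFN and ITGB4 were above 1 RPKM in both, ITGB4 being highest at 51.4 and 41.6 RPKM. Of 6 mesenchymal genes, VIM was highest at 1519 and 1278 RPKM, followed by SPARC at 505 and 382 and FN1 at 6.80 and 5.44. COL1A1 was at 1.70 and 0.866 RPKM, and COL1A2 and COL3A1 were under 1 RPKM in both. The 8 keratinocyte genes summed to 7244 reads in siNC and 4744 in siLINP1. Of 5 blood cell genes, 3 had 0 reads in both libraries. The 5 genes of gastric epithelium summed to 378 reads in siNC and 0 in siLINP1, and the part of these differences in the results was not tested. The study's supplement reports a short tandem repeat profile of its HSC-1 line that fully matched the cell bank record. That profile was made on the line and not on these libraries. The marker levels raise a question about the cells sequenced, which was not tested further. In bulk RNA, fewer cells of a type and less RNA per cell cannot be told apart.

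Levels were compared between genes as RPKM, which corrects for the gene length of the table. In siNC, SQSTM1 stood first at 296 RPKM (95% interval 291 to 300), rank 174 of 19233 protein-coding genes, followed by GABARAP at 198 RPKM. GABARAPL1 at 57.7, GABARAPL2 at 43.6, MAP1LC3B at 26.1, BECN1 at 22.2, WIPI1 at 19.0, ATG12 at 16.6, ULK1 at 11.5 and ATG5 at 7.32 RPKM came after them, and no neighbours in this order had overlapping intervals. In siLINP1 SQSTM1 again stood first, at 503 RPKM (497 to 509), rank 100. The first 4 places and the last were the same in both libraries. BECN1 (35.3 RPKM) came before MAP1LC3B (32.2) in siLINP1, and ATG12 (21.6) before WIPI1 (15.7) and ULK1 (14.8), and the intervals of BECN1 and MAP1LC3B overlapped, as did those of WIPI1 and ULK1.

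**Figure D1:**
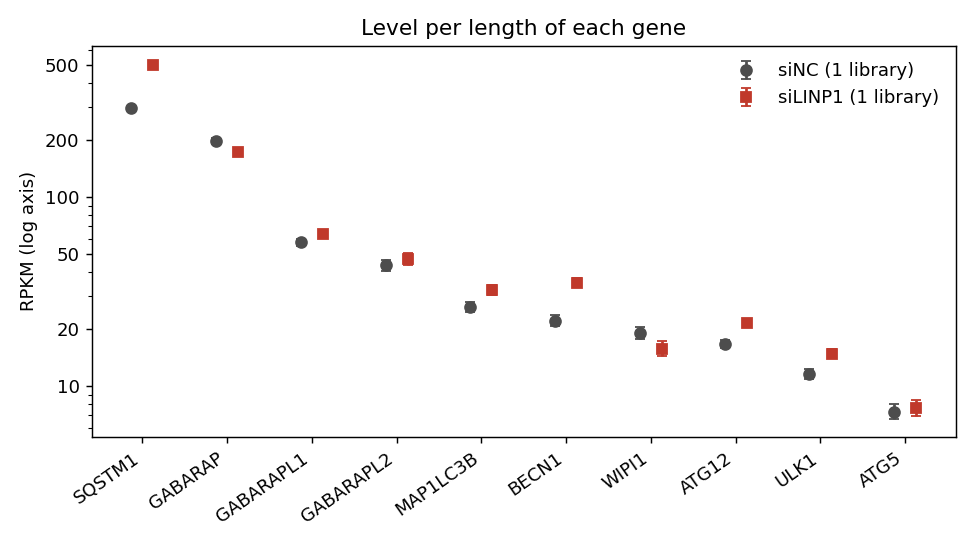
Level of the 10 genes in RPKM (log axis) in the siNC and siLINP1 libraries, with 1 library per condition and 95% counting intervals as bars. SQSTM1 has the highest level in both, at 296 and 503 RPKM, and ATG5 the lowest, at 7.32 and 7.64 RPKM.

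SQSTM1, at chr5:179233388-179265078 on the plus strand, had 18581 reads in siNC against 25814 in siLINP1. The siLINP1 library thus held more reads of this gene although fewer reads in all. The log2 fold change was 0.68 (95% interval 0.66 to 0.71), and its share of all reads went from 0.0987% to 0.168%. Among the 7071 genes with at least 1000 reads over both libraries, 3.85% had a higher log2 fold change. The annotation places exons of MRNIP on the opposite strand over 1582 bases, or 21.0%, of the annotated SQSTM1 exons. These exons cover 7535 bases, against 3337 bases of counted gene length, so the overlap with the counted exons is not known. MRNIP had 690 and 685 reads. The strand setting of the counting was not given in the sources used here, and the part of overlapping reads was not tested.

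BECN1, at chr17:40962150-40976333 on the minus strand, had 904 reads in siNC against 1175 in siLINP1. The log2 fold change was 0.59 (95% interval 0.46 to 0.71), close to the 1.5-fold limit of 0.585, and its interval lay on both sides of that limit. With the trend on GC content removed it was 0.56, short of the limit. Of genes with at least 1000 reads, 5.37% had a higher value. On the opposite strand, CNTD1 overlaps 12.4% of the annotated BECN1 exons and had 265 and 297 reads, and PSME3 overlaps 4.68% and had 3049 and 2457 reads. The annotated exons cover 6413 bases and reach past the counted span, against 2166 bases of counted gene length, so the overlap with the counted exons is not known. The fold of BECN1 divided by that of SQSTM1 was 0.936 (exact conditional interval 0.855 to 1.02), so the counts did not separate the pair.

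The stretches of 150 bases before a RefSeq start site are shown for SQSTM1 and BECN1, the pair of genes past 1.5-fold, each on the strand of its gene. They come from RefSeq promoters of GRCh38.p14 that match GRCh37 exactly once. SQSTM1 has 3 start sites in the table. The stretch before the most downstream of them is shown, at chr5:179247755-179247904 on the plus strand, with 27 bases in an annotated exon of SQSTM1, the fewest exon bases of the 3. The BECN1 stretch is chr17:40975898-40976047 on the minus strand, with none of its bases in an annotated exon. Like the SQSTM1 stretch, it lies inside the counted span of its gene, which for BECN1 reaches 40976333.
SQSTM1: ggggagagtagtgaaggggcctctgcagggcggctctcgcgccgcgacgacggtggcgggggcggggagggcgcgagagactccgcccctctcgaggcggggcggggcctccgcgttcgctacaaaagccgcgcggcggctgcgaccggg
BECN1: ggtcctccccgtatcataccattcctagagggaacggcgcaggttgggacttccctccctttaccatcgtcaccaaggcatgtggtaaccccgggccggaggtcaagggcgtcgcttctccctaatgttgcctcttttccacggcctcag
Motifs were searched on both strands in the 13 windows of 300 bases (250 before and 50 after a start site) that the table gives for the 10 genes. The ATF4 element TGATGNAAN, the E-box CACGTG and the TFEB element TCACGTGA, which contains the E-box, were in 0 of these windows, against 3.61%, 7.26% and 0.980% of 35116 promoters. The antioxidant element TGACNNNGC, found in 13.3% of promoters, matched in 1 window, that of MAP1LC3B, beginning 46 bases before the start site. Some windows, among them those of BECN1, ATG5 and ATG12, lie inside the counted span of the gene, so for these genes the sequence before that span was not searched. A match or its lack describes these letters only.

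Of the ATG8 genes, MAP1LC3B was the one with an interval wholly above 0. This gene for LC3B, at chr16:87425801-87438380 on the plus strand, had 1126 reads in siNC against 1132 in siLINP1, for a log2 fold change of 0.22 (95% interval 0.097 to 0.34). The antioxidant match in its promoter is shown in capitals, with 10 bases on each side, at chr16:87425886-87425914 on the plus strand, inside an annotated exon of MAP1LC3B.
MAP1LC3B: gcgagtcaccTGACCAGGCtgcgggctga
GABARAP, at chr17:7143738-7145753 on the minus strand, had 3335 reads in siNC against 2383 in siLINP1, for a log2 fold change of -0.28 (95% interval -0.35 to -0.20). This difference was not kept once a trend on gene length was removed. Of the annotated GABARAP exons, ENSG00000262526 on the same strand overlaps 35.4% and ENSG00000279641 on the opposite strand 12.8%. Neither of these genes has counts here. GABARAPL1, at chr12:10365489-10375727, had 2030 and 1833 reads, for a log2 fold change of 0.06 (-0.03 to 0.15). GABARAPL2, at chr16:75600249-75611779, had 822 and 727 reads, for a log2 fold change of 0.03 (-0.11 to 0.18). Both of these genes lie on the plus strand, and both intervals held 0. For GABARAPL1 this depended on the scaling, since its value with total count scaling was 0.14 (0.05 to 0.24).

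MAP1LC3B, GABARAPL1 and GABARAPL2 differed from GABARAP in their folds, a comparison in which the scaling between libraries cancels. The fold of MAP1LC3B was 1.41 times that of GABARAP (exact conditional interval 1.27 to 1.55). The ratio was 1.26 for GABARAPL1 (1.16 to 1.37) and 1.24 for GABARAPL2 (1.10 to 1.39). Neither these ratios nor the shares below were adjusted for the trend on gene length, which does not cancel. With that trend removed, the log2 fold changes of MAP1LC3B, GABARAPL1, GABARAPL2 and GABARAP were 0.28, 0.16, 0.24 and -0.06. Of the ATG8 genes outside the 10, MAP1LC3A had 335 and 241 reads, for a log2 fold change of -0.27 (-0.51 to -0.02). This was close to the value of GABARAP, -0.28. MAP1LC3C had 21 and 11 reads and MAP1LC3B2 had 4 and 5, so little can be said of either. GABARAP took 57.9% of the summed RPKM of the 7 ATG8 genes in siNC and 52.4% in siLINP1, whereas MAP1LC3B took 7.63% and 9.71%. By reads, the share of GABARAP went from 43.5% (Clopper-Pearson 95% interval 42.4 to 44.6) to 37.6% (36.4 to 38.8). The summed RPKM of the family was 342 in siNC and 331 in siLINP1.

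Gene length moved with the difference between the libraries. Among genes with at least 1000 reads, the median log2 fold change was -0.34 for the 313 genes of up to 1000 bases, of which 78.3% had an interval below 0. It was 0.10 for the 1464 genes over 6000 bases. GABARAP has a length of 893 bases in the table and stood near the median of its length class. With the trend on length removed, its log2 fold change was -0.06 (95% interval -0.13 to 0.02), and those of GABARAPL2 (length 1002 bases) and GABARAPL1 (1870 bases) were 0.24 (0.10 to 0.39) and 0.16 (0.06 to 0.25). The interval of GABARAP thus held 0 after this step, and those of GABARAPL1 and GABARAPL2 lay above 0. SQSTM1 was at 0.71 and BECN1 at 0.66 after it, and what the trend comes from was not tested.

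ATG12, which encodes a ubiquitin-like protein and lies at chr5:115163893-115177548 on the minus strand, had 1430 reads in siNC against 1516 in siLINP1. The log2 fold change was 0.29 (95% interval 0.19 to 0.40). ATG5, its acceptor protein in the conjugate, lies at chr6:106632351-106773695 on the minus strand and had 469 and 400 reads, for a log2 fold change of -0.02 (-0.22 to 0.18). The fold of ATG12 was 1.24 times that of ATG5 (exact conditional interval 1.06 to 1.45). ULK1, at chr12:132379279-132407707 on the plus strand, had 1135 and 1191 reads, for a log2 fold change of 0.28 (0.16 to 0.40). WIPI1, at chr17:66417422-66453665 on the minus strand, had 741 and 502 reads, for a log2 fold change of -0.35 (-0.52 to -0.19). It was the lowest of the 10 genes, also against its relative WIPI2, with a ratio of folds of 0.738 (0.644 to 0.847). ARSG on the opposite strand overlaps 24.4% of the annotated WIPI1 exons and had 52 and 39 reads. These exons cover 3403 bases, against 2072 bases of counted gene length, and the part of overlapping reads was not tested.

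Guide strands of an siRNA can also act on other transcripts through a site that pairs with bases 2 to 8. The study lists a pair of siLINP1 oligonucleotides, and which of them was sequenced was not given in the sources used here. Their target sequences are shown with the bases that pair with the guide's bases 2 to 8 in capitals.
siLINP1_01: ccaactgcgggACTTCAGa
siLINP1_02: cactctccagcCTGCAAGa
Among the 10 genes, ATG12 held a site of siLINP1_01 in its 3′ UTR at chr5:115163985-115163991 (minus strand). GABARAPL1 held a site of siLINP1_02 at chr12:10375658-10375664 (plus strand), and ATG5 held one at chr6:106634294-106634300 (minus strand). Each is printed from GRCh37 with 7 bases on either side.
ATG12: agtataaACTTCAGtttgttc
GABARAPL1: ctgtcagCTGCAAGttcttgt
ATG5: ttcgctgCTGCAAGccagaca
Sites of siLINP1_01 and siLINP1_02 were present in 17.7% and 14.5% of 13604 genes with an annotated 3′ UTR. The other 7 genes held neither site, and the intervals of the 3 genes with a site were above 0 or held 0.

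All 10 genes had at least 10 reads over both libraries, the minimum for the comparison, and 9 had at least 1000 reads, ATG5 being the exception with 869. Past 1.5-fold, the fold criterion of the study, 2 of the 10 were higher and 0 were lower. That limit was passed upward by 14.4% and downward by 13.0% of the 19840 genes kept, and among genes with at least 1000 reads by 5.47% and 3.56%. The interval lay above 0 for 5 of the 10 genes and below 0 for 2. Of genes kept, 23.0% had an interval above 0 and 25.6% below, and of genes with at least 1000 reads 31.7% and 40.7%. The median log2 fold change was 0.14 over the 10 genes and -0.02 over all genes kept. Against SQSTM1, the ratio of folds was below 1 with its whole interval for 8 of the other 9 genes, from 0.763 for ATG12 (0.708 to 0.823) to 0.488 for WIPI1 (0.434 to 0.548), BECN1 being the exception.

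**Figure D2:**
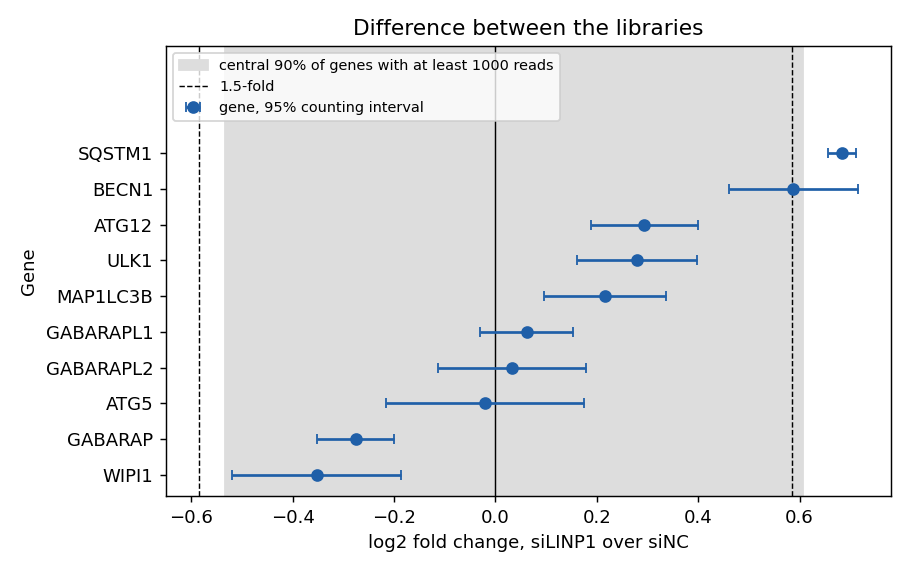
Log2 fold change of siLINP1 over siNC for the 10 genes, with 95% counting intervals and dashed lines at 1.5-fold. SQSTM1 at 0.68 and BECN1 at 0.59 lie past the line, GABARAP at -0.28 and WIPI1 at -0.35 lie below 0, and the other genes lie between -0.02 and 0.29.

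The wider pathway was covered by 10 lists with 125 distinct genes, of which 124 were kept. Past 1.5-fold, 9 were higher (ATG2B, ATG9B, BECN1, DDIT3, PLEKHM1, PRKAA2, SQSTM1, ULK2 and UVRAG) and 7 were lower (BNIP3, BNIP3L, FKBP8, MAP1LC3C, NPC2, RHEB and VAMP8). These are 7.26% and 5.65% of the 124 genes, against 14.4% and 13.0% of all genes kept and 5.47% and 3.56% of genes with at least 1000 reads. ATG9B, ULK2 and MAP1LC3C had 20, 11 and 32 reads over both libraries, and the intervals of ULK2 and MAP1LC3C held 0. The interval lay above 0 for 37 genes (29.8%) and below 0 for 42 (33.9%), against 23.0% and 25.6% of all genes kept and 31.7% and 40.7% of genes with at least 1000 reads. The counts of the single lists are to be read beside these shares. Values of list genes outside the 10, here and below, were not adjusted for the trend on gene length. Only the list medians were also computed with that trend removed, and how far single genes follow it was not tested. The list medians were -0.12 for the ATG8 family, -0.08 for receptors, -0.02 for conjugation, 0.16 for the ULK1 complex, 0.14 for the BECN1 complex, 0.09 for WIPI, ATG2 and ATG9, -0.04 for fusion, -0.17 for the lysosome, 0.16 for transcription factors and -0.0048 for ULK1 kinases, beside -0.02 over all genes kept. The median of the ATG8 family turned on MAP1LC3C and was 0.03 with a minimum of 100 reads, and it was 0.05 with the trend on length removed. The same removal gave -0.10 for receptors, 0.00099 for conjugation, 0.22 for the ULK1 complex and 0.07 for the BECN1 complex. It gave 0.06 for WIPI, ATG2 and ATG9, -0.01 for fusion, -0.17 for the lysosome, 0.13 for transcription factors and -0.05 for ULK1 kinases. Scaling by the total count adds 0.08 to every gene, and the median of all genes kept then changes sign as well, to 0.06, so the place of each list against all genes is as before.

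Among 21 autophagy receptors, SQSTM1 had the highest log2 fold change, and the interval lay above 0 for 6 and below 0 for 10, beside 31.7% and 40.7% of genes with at least 1000 reads. BCL2L13, a receptor on mitochondria, had 1298 and 1473 reads, for a log2 fold change of 0.39 (95% interval 0.28 to 0.50). BNIP3, another mitochondrial receptor and a known hypoxia-inducible gene, had 3607 reads in siNC against 1541 in siLINP1, for a log2 fold change of -1.02 (-1.10 to -0.93). FKBP8 had 7694 and 4335 reads, for a value of -0.62 (-0.67 to -0.56). Grouped by cargo after their values had been seen, 6 ubiquitin-binding receptors (SQSTM1, NBR1, OPTN, CALCOCO2, TAX1BP1 and TOLLIP) had an interval above 0 in 4 and below 0 in 1. Of 6 mitochondrial receptors 1 was above and 5 below, and of 6 receptors of the endoplasmic reticulum 0 were above and 4 below. Of the 3 other cargo receptors 1 was above and 0 below. The median log2 fold changes of these groups were 0.22, -0.49, -0.29 and 0.13. Since the groups were formed on seen values, these counts are a description only.

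The partners of the other genes were read from the same kind of list. Beside the counts below, 23.0% of all genes kept had an interval above 0 and 25.6% below. Among genes with at least 1000 reads these shares were 31.7% and 40.7%. Of the 11 conjugation genes, 3 had an interval above 0 and 1 below. ATG16L1, which joins ATG12 and ATG5 in their complex, had 689 and 724 reads, for a log2 fold change of 0.28 (0.13 to 0.43), near that of ATG12, while the protease gene ATG4C was at -0.53 (-0.82 to -0.24). In the ULK1 complex (5 genes) 2 were above and 0 below, RB1CC1 being at 0.16 (0.06 to 0.27). In the BECN1 lipid kinase complex (8 genes) 3 were above and 1 below. UVRAG, which binds BECN1, had 706 and 1078 reads, for a value of 0.82 (0.68 to 0.96), and NRBF2 was at -0.26 (-0.48 to -0.03).

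Of 11 genes for WIPI, ATG2, ATG9 and related proteins, 3 had an interval above 0 and 4 below, beside 23.0% and 25.6% of all genes kept. The lipid transfer genes ATG2B and ATG2A were at 0.74 (0.54 to 0.94) and 0.36 (0.28 to 0.45), whereas WDR45B, of the same protein family as WIPI1, was at -0.52 (-0.64 to -0.40). Of 14 genes for fusion with the lysosome, 4 were above and 4 below, with PLEKHM1 at 0.92 (0.81 to 1.04), EPG5 at 0.44 (0.31 to 0.57), VAMP8 at -0.62 (-0.89 to -0.36) and TECPR1 at -0.52 (-0.66 to -0.39). Of 22 lysosomal genes, 5 were above and 13 below, beside 31.7% and 40.7% of genes with at least 1000 reads. NPC1 and NEU1 were at 0.33 (0.24 to 0.42) and 0.32 (0.15 to 0.49), and NPC2 and LAMP1 at -0.66 (-0.79 to -0.53) and -0.50 (-0.58 to -0.43).

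Of 9 transcription factor genes tied to autophagy, 5 had an interval above 0 and 1 below. Over all genes kept these shares were 23.0% and 25.6%, and over genes with at least 1000 reads 31.7% and 40.7%. DDIT3, which encodes CHOP, had 1965 reads in siNC against 3558 in siLINP1, for a log2 fold change of 1.07 (0.99 to 1.15), and ATF4 was at 0.21 (0.17 to 0.25). TFEB, a regulator of lysosomal genes, had 116 and 74 reads, for a value of -0.44 (-0.88 to -0.01). Of 17 genes for the kinases that act on ULK1 and their regulators, 5 were above and 6 below. PRKAA2, a catalytic subunit of AMPK, had 241 and 433 reads, for a value of 1.05 (0.82 to 1.29), and SESN2 was at 0.50 (0.42 to 0.58). RHEB, which activates mTORC1, was at -0.70 (-0.82 to -0.58) and MLST8, an mTORC1 subunit, at -0.49 (-0.61 to -0.36).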

How the data were processed

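RNA sequencing of HSC-1 cells was analysed from 1 siNC and 1 siLINP1 library. Alignment by the authors was to GRCh37/hg19 with Tophat2 and counting was with HTSeq, and raw read counts per gene were deposited. The submitters' processing notes also name HISAT2, HISAT and Bowtie2. Versions, annotation and strand setting were not given in the sources used here. The deposited RPKM values are counts relative to gene length and library total, and were used for levels. Of the table, 12 further per-sample columns were left out, and the authors' normalized values and comparisons were left out as well.

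Size factors by the median of ratios scaled the counts (1.08 for siNC, 0.930 for siLINP1), and genes with at least 10 reads over both libraries were kept. No pseudocount was added to the log2 fold change. Its 95% interval follows from the Clopper-Pearson bounds on the share of a gene's reads found in siLINP1, with the size factors taken as fixed. Ratios of folds have exact conditional intervals of the odds ratio. Intervals cover counting error only and take the reads as independent. Reads without molecular identifiers are not independent molecules, so the intervals can be too narrow. Exons and 3′ UTRs came from GENCODE v44 lifted to GRCh37, which had GC values for 78.3% of genes kept, and promoters from RefSeq (GRCh38.p14, 10 of 10 genes matched). Trends on gene length and GC content were removed by lowess (fraction 0.3). Calculations were tested on simulated data.

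The genes and lists were chosen with earlier results of these data known. The genes named were the 10 genes, LINP1, the ATG8 family and, in each list, up to 2 genes with the largest difference in each direction by the nearer end of the interval, with at least 100 reads. Genes named past 1.5-fold, marker genes, neighbours and receptor groups were chosen after their values had been seen. The alternatives were total count (CPM), edgeR TMM factors, size factors from protein-coding genes or from genes with at least 1000 reads, pseudocounts of 1 and 5, a minimum of 1 or 100 reads, 2-fold in place of 1.5-fold and removal of either trend. The software was R 4.3.3 with edgeR 4.0.16, for TMM factors only, and Python 3.11.15 with scipy 1.17.1, numpy 2.4.6, statsmodels 0.14.6, pandas 2.3.3 and matplotlib 3.10.9.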

Additional observations from a re-analysis of the deposited data

How the results depend on the processing

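Of 80 values of the 10 genes under the alternatives, 70 stayed inside their main interval and 10 moved, and the 4 other scalings shifted every log2 fold change by at most 0.08. SQSTM1 left its narrow main interval under each of these scalings, with values from 0.711 (TMM factors) to 0.766 (total count). Under each of these scalings 9 of the 10 genes kept their sign, the exception being ATG5. The median of all genes kept moved by the same shift, from -0.02 to between 0.0044 and 0.06. The number of the 10 genes past 1.5-fold higher was 1 with the trend on GC content removed, which left BECN1 at 0.56 (0.43 to 0.68), and 0 with 2-fold in place of 1.5-fold. With the trend on length removed, the number with an interval below 0 was 1 in place of 2 and the number above 0 was 7 in place of 5. The number above 0 was 6 with total count scaling and with size factors from protein-coding genes or from genes with at least 1000 reads, GABARAPL1 being the gene added. Removal of the GC trend gave SQSTM1 0.82 and ULK1 0.50, and the cause was not tested. The removal of the GC trend and the size factors from genes with at least 1000 reads were chosen after seeing the data. With a minimum of 100 reads, 8.72% of all genes passed 1.5-fold upward and 6.77% downward, and with a minimum of 1 read 23.9% and 21.9%. No paired analysis was possible because each group had 1 library. Of the 10 genes, ATG5 had the fewest reads (869) and the widest interval.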
